A study of Homo sapiens with 6 samples.

Results

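The response of T98G cells to miR-338-5p was taken as the difference between a pair of arrays: T98G cells transfected with a precursor of miR-338-5p (the mimic) and T98G cells transfected with a negative control oligonucleotide. These are 2 of the 6 arrays of the series, and 13813 genes were compared. T98G, A172 and U87MG are established human glioblastoma lines, and each gave 1 control array and 1 mimic array, harvested 24 hours after transfection. RNA was hybridised to the Affymetrix Human Gene 1.0 ST array, and the deposited values are on the log2 scale after RMA, the standard summary of Affymetrix probes. All 6 arrays come from cells in the same medium with serum that went through a transfection, so no array shows untouched cells. Differences are mimic minus control in log2 units, where -1 means 2-fold lower with the mimic. T98G has 1 array a side, so its differences carry no test, and statements on it alone are descriptions. The labels do not say whether an array came from 1 culture or a pool.

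A microRNA is a short RNA that, loaded into an Argonaute protein, pairs through its seed with matching messenger RNAs and lowers their stability and translation. The miR-338 hairpin yields a 5p and a 3p strand with different seeds, and it lies in an intron of AATK, a kinase gene of the nervous system. In glioblastoma, miR-338-5p has been studied for its part in the response to DNA damage. Both mature strands are shown because the seed of the transfected strand differs from that of its partner; capitals mark bases 2 to 8.
hsa-miR-338-5p: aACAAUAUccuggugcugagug
hsa-miR-338-3p: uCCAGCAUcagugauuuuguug
The 5p strand lies at chr17:81125923-81125944 and the 3p strand at chr17:81125887-81125908, both on the minus strand, per the RefSeq table of GRCh38.p14. Among 2370 mature human names in that table, 1 carries the 5p seed, and it is miR-338-5p. The host gene AATK was at 5.11 in the T98G control array and 4.83 in the mimic array, with differences of -0.13 in A172 and -0.05 in U87MG.

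Array medians lay between 5.06 and 5.14. Over probe sets the T98G pair had r = 0.992, and pairs from different lines 0.954 to 0.962. The glial and mesenchymal genes VIM and CD44 were high in T98G (11.88 and 11.70 in the control array), and 7 of 10 glial and neural stem markers reached the filter level of 4.28 that the mean of a gene had to pass. GFAP, the astrocyte filament, was at 5.39 and 5.35, while S100B, AQP4 and FABP7 stayed under that level on both T98G arrays. T98G was set apart from the other lines by MGMT, a DNA repair enzyme (6.14 and 6.02 in T98G, 4.88 to 5.16 elsewhere), and by IL13RA2, a cytokine receptor (2.65 and 2.29 in T98G, 6.97 to 7.36 elsewhere). Markers of other cell types differed by less than 0.50 between the T98G arrays: 0 of 3 oligodendrocyte, 1 of 4 endothelial and 2 of 5 leukocyte markers reached the filter level, as did 5 of 5 fibroblast, 4 of 5 neuronal and 3 of 5 epithelial markers.

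Among genes with a single symbol, the mimic array of T98G was mainly marked by lower genes. Probe sets without a single symbol, described near the end, split the other way, with 40 lower and 62 higher by 1 or more. Of 13813 genes, 30 (0.217%) were lower by 1 or more and 10 (0.0724%) were higher by 1 or more. At a smaller fold of 0.5, 310 genes (2.24%) were lower and 202 (1.46%) higher. Over all genes the T98G difference had a median of -0.01 and an SD of 0.227, and 95% of genes lay between -0.48 and 0.42. The lowest gene was RAB1A at -1.91 and the highest TAPT1 at 1.24. In RNA from a whole culture, fewer cells with a transcript and less of it per cell cannot be told apart.

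The surplus of lower genes sat among well expressed genes. With the genes in 4 equal classes by T98G level, 9 were lower by 1 or more and 2 higher in the brightest class, and 12 and 0 in the next. In the dimmest class the counts were 6 and 7. The median difference moved with level in the same direction, from 0.06 in the dimmest class to -0.03 in the brightest. How large the surplus was depended on the array scale. With each array centred on its median the counts were 36 lower and 4 higher at a fold of 1, and 448 and 124 at 0.5, which makes 90% and 78.3% of the calls lower against 75% and 60.5% on the deposited scale. With the trend against level removed by loess, the counts at a fold of 1 were 27 and 4, or 87.1% lower. The genes next to the fold of 1 were DCP2 (-1.01) and SCML2 (-1.005) just inside, with RNF138 (-0.999) and RAB28 (-0.99) just outside. On the higher side EBI3 and SLC24A1 were just inside, with MXRA5 (0.98) and TOR4A (0.97) just outside.

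**Figure D1:**
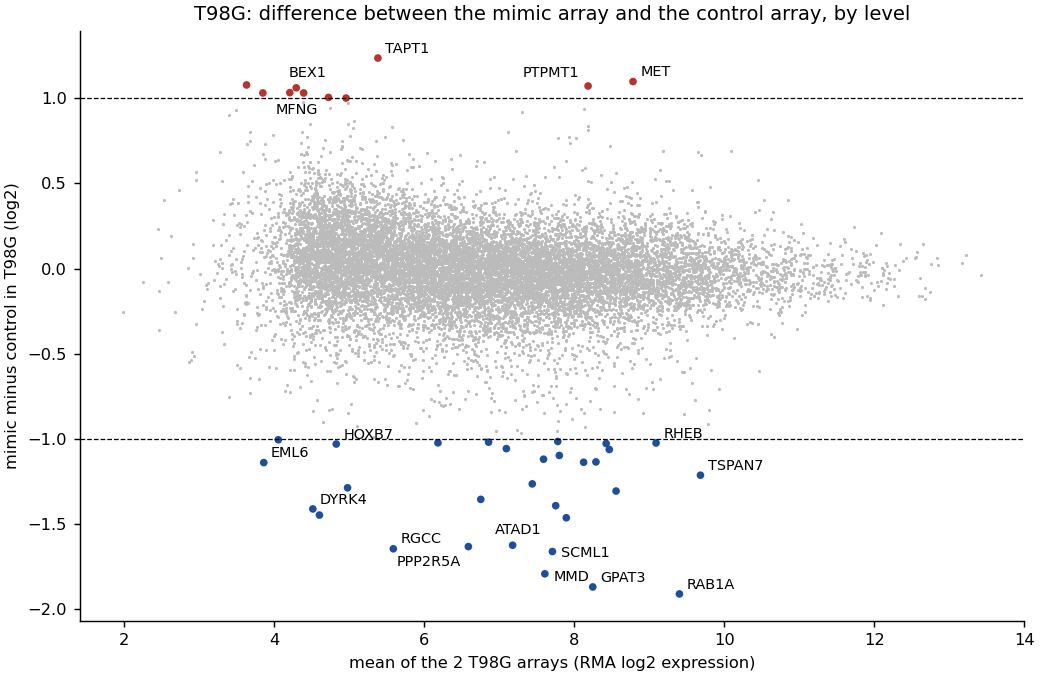
Difference between the T98G mimic and control arrays (vertical axis, log2) against the mean of both arrays (horizontal axis, RMA log2 expression) for 13813 genes. Blue points are the 30 genes lower by 1 or more and red points the 10 higher; the blue points run up to RAB1A at -1.91, while 7 of the red points lie near the low end of the level axis.

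The gene lowered most in T98G was RAB1A, a small GTPase that directs vesicles from the endoplasmic reticulum to the Golgi. Its T98G level was 10.36 in the control array and 8.45 in the mimic array, a 3.76-fold difference on the linear scale. The same drop was seen from 10.46 to 8.87 in A172 and from 10.35 to 8.66 in U87MG, so all 3 mimic arrays lay below all 3 controls. The mean over the lines was -1.73 ± 0.161 (SD, n = 3; adjusted p = 0.00247 in limma's fit of the mimic effect with the line as a block). That fit called 109 genes lower (0.789%) and 44 higher (0.319%) of 13813. It includes T98G, so for genes named for their T98G difference its p-values are not independent of the choice. Its total of 153 calls depended on the lines included: it was 64 without A172, 117 without T98G, and 0 without U87MG, where 1339 genes had an unadjusted p under 0.05.

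Among membrane and lipid genes, GPAT3, an acyltransferase of triglyceride synthesis, was second. It was at 9.18 and 7.31 in T98G, at 9.78 and 8.22 in U87MG, and at 4.71 and 3.99 in A172, where it was poorly expressed. GPAT3 fell over the 3 lines (mean -1.39 ± 0.597 SD, n = 3; adjusted p = 0.0361, limma). MMD, a Golgi membrane protein of the progestin and adipoQ receptor family, was at 8.51 and 6.71 in T98G. Its difference of -1.79 there stood beside -1.33 in A172 and -1.47 in U87MG, and it too fell over the lines (adjusted p = 0.00506, limma). SYPL1, a synaptophysin-like vesicle protein, had T98G levels of 8.45 and 7.06 and moved evenly, by -1.39 in T98G, -1.20 in A172 and -1.32 in U87MG. TMEM64, a membrane protein, was at 8.63 and 7.16 in T98G. ATAD1, an ATPase that pulls misplaced proteins out of the outer mitochondrial membrane, was at 7.99 and 6.37, a difference of -1.62 against -1.06 in A172 and -1.61 in U87MG. CEMIP2, a hyaluronan-degrading protein of the cell surface, stood lower in T98G (7.43 and 6.08, difference -1.36) than in either other line (-0.58 and -0.67). Its mean over the lines did not pass (adjusted p = 0.0646, limma), nor did its T98G excess (adjusted p = 0.518, limma). The mean of A172 and U87MG alone did pass (adjusted p = 0.0405, limma).

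Among chromatin genes, SCML1, a Polycomb-related protein, was at 8.54 and 6.88 in T98G. Its differences were -1.66 in T98G, -1.41 in A172 and -1.59 in U87MG (adjusted p = 0.00247 for the mean, limma). Its relative SCML2 followed in all 3 lines (-1.005 in T98G, -1.20 in A172, -1.12 in U87MG), although its T98G mimic array, at 3.55, lay under the filter level. KAT2B, a histone acetyltransferase, was at 6.70 and 5.67 in T98G and fell in the 3-line fit (adjusted p = 0.00741, limma). NUP35, a nuclear pore subunit, was at 8.07 and 6.81. Its differences were -1.26 in T98G, -0.97 in A172 and -0.82 in U87MG.

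Among signalling genes, PPP2R5A, a B-type regulator of protein phosphatase 2A, was at 7.41 and 5.77 in T98G. Its differences were -1.63 in T98G, -1.64 in A172 and -1.44 in U87MG (mean -1.57 ± 0.113 SD, n = 3; adjusted p = 0.00247, limma). GNAQ, a G protein alpha subunit, was at 9.21 and 7.91 in T98G, and its other probe set gave -1.03 there, against -1.31 on the probe set used. RHEB, the GTPase that activates mTORC1, was at 9.60 and 8.58, and its 2 probe sets gave -1.02 and -0.996. NDFIP1, which brings substrates to NEDD4-family ligases, was at 7.72 and 6.77. It moved by nearly the same amount everywhere, by -0.95 in T98G, -0.97 in A172 and -0.95 in U87MG (adjusted p = 0.00549 for the mean, limma). PPP2R5A, NDFIP1 and RHEB were put forward as miR-338-5p targets by the study itself, as far as is known, so their direction is not independent evidence.

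The remaining lower genes are named here after their values were seen. The kinases PKN2 (T98G -1.14), NEK7 (-1.10) and HIPK3 (-1.06), the phosphoinositide-binding Golgi protein PLEKHA3 (-1.12), the membrane protein JKAMP (-1.14) and the growth factor relative HDGFL3 (-1.03) fell in the 3-line fit. DCP2, the decapping enzyme that starts the decay of many messenger RNAs, was at 8.29 and 7.28 in T98G. Its difference of -1.01 in T98G stood beside -1.69 in A172 and -1.18 in U87MG. For HIPK3 the T98G value lay between -1.83 in A172 and -0.78 in U87MG.

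Sharing with the other lines was judged gene by gene, each line against its own control, so the differences share no array. Of the 30 genes lower by 1 or more in T98G, 21 were lower by 0.5 or more in both A172 and U87MG; over all genes 94 of 13813 (0.681%) were. Over all 30 genes the medians were -1.24 in T98G, -0.91 in A172 and -0.95 in U87MG. These genes were chosen by their T98G value, so the larger T98G median is partly built in. In the 3-line fit 21 of the 30 were called, though that fit includes the T98G values that chose them. Of the genes called lower in A172 and U87MG alone, 21 were at -1 or lower in T98G. Beyond the shared genes, 5 of the 30 reached -0.5 in 1 other line: PCDHA4 in A172, and DYRK4, CCDC126, ACADM and CCDC186 in U87MG. Of these, CCDC186 fell in the 3-line fit (adjusted p = 0.0478, limma) and the other 4 did not pass it. CCDC186 did not pass without T98G (adjusted p = 0.0747, limma). PCDHA4, a protocadherin whose gene cluster shares exons, was at 5.33 and 3.88 in T98G, and its value may include its neighbours. DYRK4, a protein kinase, was at 5.22 and 3.81. The mimic arrays of PCDHA4 and DYRK4 were under the filter level, where the size of a difference is less certain. ACADM, the medium-chain acyl-CoA dehydrogenase of fatty acid oxidation, was well expressed, at 9.0 and 7.94.

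Few of the higher genes were shared. Of the 10 genes higher by 1 or more in T98G, 3 were higher by 0.5 or more in both other lines, where 51 of all genes (0.369%) were. They were TAPT1, MET and PTPMT1, and the 3-line fit called these 3 and none of the other 7. MET, the receptor of hepatocyte growth factor, was at 8.24 and 9.33 in T98G, 7.62 and 8.93 in A172, and 8.88 and 9.90 in U87MG. Its mean was 1.14 ± 0.154 (SD, n = 3; adjusted p = 0.00574, limma). PTPMT1, a mitochondrial phosphatase of cardiolipin synthesis, was at 7.65 and 8.72 in T98G and rose by 1.10 ± 0.163 over the lines (SD, n = 3; adjusted p = 0.00712, limma). TAPT1, a transmembrane protein, was at 4.77 and 6.0 in T98G and rose by 1.08 ± 0.143 (SD, n = 3; adjusted p = 0.00657, limma). Overlaps were also counted at a fold of 1 in each line. Of lower genes, T98G shared 14 with A172 (46.7% of the T98G genes, 63.6% of the 22 in A172) and 15 with U87MG (50% and 68.2% of 22). Of higher genes it shared 1 with A172 (10% and 4.17% of 24) and 3 with U87MG (30% and 21.4% of 14).

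**Figure D2:**
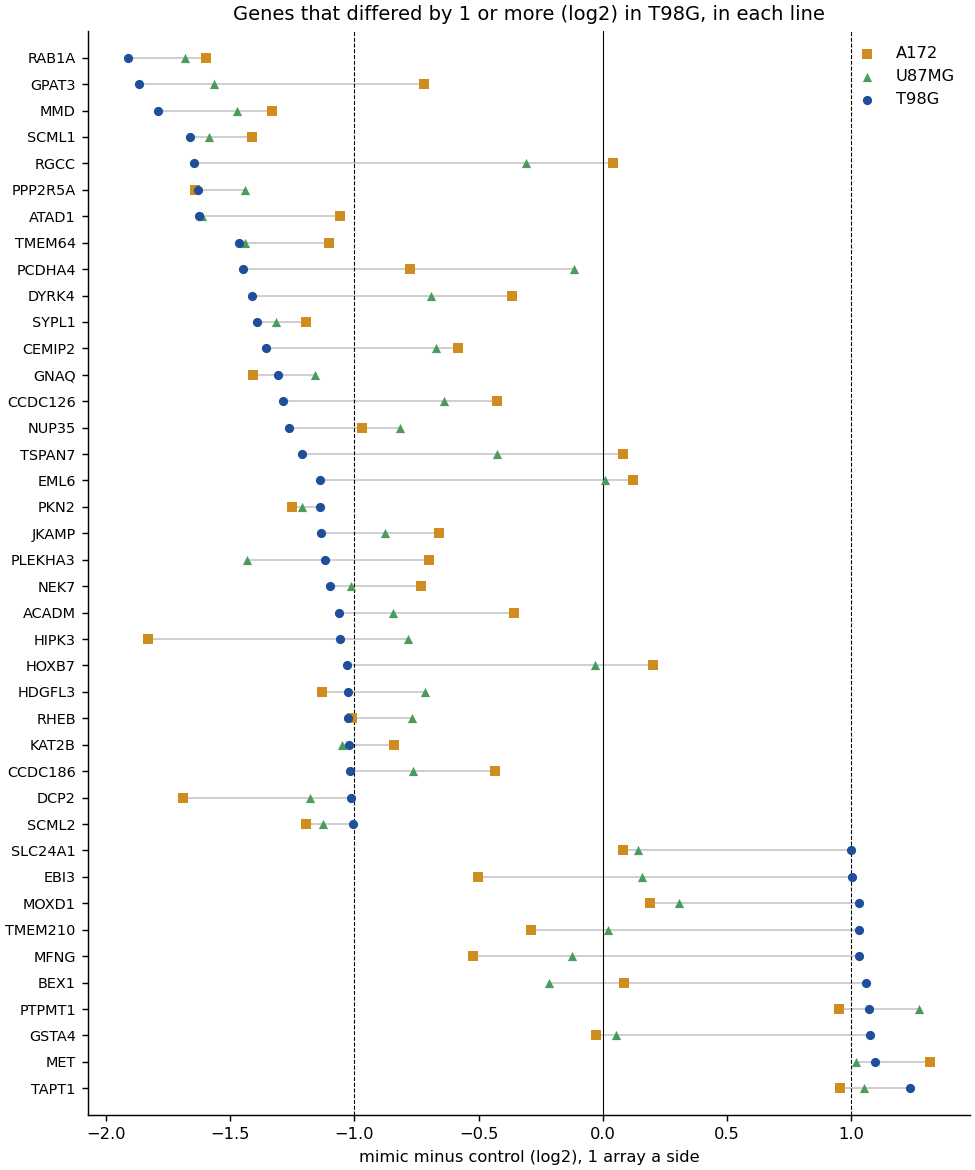
Mimic minus control (log2, horizontal axis) for the 40 genes that differed by 1 or more in T98G, with 1 symbol for each line and no error bars, since each point is 1 array less 1 array. All 30 lower genes but RGCC, TSPAN7, EML6 and HOXB7 have 3 symbols left of 0, whereas 7 of the 10 higher genes have only the T98G symbol near or beyond 1.

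The 7 higher genes not shared were dim in T98G. EBI3, a cytokine subunit, was at 4.22 and 5.23; MFNG, a glycosyltransferase that modifies Notch, at 3.69 and 4.73; BEX1, a small neuronal protein, at 3.77 and 4.83. TMEM210 was at 3.88 and 4.91, MOXD1 at 3.33 and 4.37, SLC24A1, a sodium, calcium and potassium exchanger, at 4.46 and 5.46, and GSTA4, a glutathione transferase, at 3.09 and 4.17. In 6 of the 10 higher genes the control array lay under the filter level, and both GSTA4 arrays did. Of the 10, 6 were under 0.25 in both other lines, which 79.1% of all genes were. With each array centred on its median 1 such gene was left, and with the lowest 50% of genes left out there were 0. The genes just short of the fold of 1, MXRA5 (3.89 and 4.87), TOR4A (4.51 and 5.48) and MST1 (4.27 and 5.22), were as dim. In the dimmest of the 4 level classes the SD over genes was 0.254, against 0.195 in the brightest.

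Genes lower in T98G with little or no difference elsewhere were few. RGCC, a p53-inducible regulator of the cell cycle, was at 6.41 and 4.77 in T98G, 4.61 and 4.65 in A172, and 5.22 and 4.91 in U87MG. The T98G control array was the high one, and the T98G mimic array lay within the range of the other 4 arrays. TSPAN7, a tetraspanin, was at 10.29 and 9.08 in T98G, with differences of 0.08 in A172, where it was near the filter level, and -0.43 in U87MG. HOXB7, a homeobox factor, was at 5.34 and 4.31 in T98G, with 0.20 in A172 and -0.03 in U87MG; it was the 1 gene of 30 that lay above -0.25 in both other lines while measured in each, as 81.5% of all genes did. EML6, a microtubule-binding protein, was at 4.43 and 3.29 in T98G, 4.05 and 4.17 in A172, and 4.99 and 5.00 in U87MG.

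Whether T98G differed from the other lines was tested with limma as the T98G response minus the mean response of A172 and U87MG. No gene was called: 0 of 13813 (0%), with 867 at an unadjusted p under 0.05 and a lowest adjusted p of 0.429. The fit has 1 residual degree of freedom, the gap between the A172 and U87MG responses, so a gene on which these lines disagree is hard to call. The lower genes of smallest p were RGCC (-1.51 ± 0.201 SE), EML6 (-1.20), HOXB7 (-1.12) and SCG5 (-0.99), all at adjusted p = 0.429 in limma. Among genes with a T98G array at the filter level, the higher ones were MFNG (1.36), TP53INP1 (1.07), FAM151A (1.06) and JAKMIP1 (1.04), at the same adjusted p. SCG5, a secretory granule chaperone, was at 5.41 and 4.56 in T98G. TP53INP1, a p53 target of the stress response, was at 4.05 and 4.90 in T98G and well expressed in A172 (6.85 and 6.72) and U87MG (6.58 and 6.27). When the variance prior was allowed to follow the mean level, 3 genes passed: RGCC (adjusted p = 0.0226), STC1 (0.0329) and IER3 (0.0408), again in limma. STC1, a secreted glycoprotein hormone, was at 9.23 and 8.70 in T98G, with differences of 0.29 in A172 and 0.08 in U87MG. IER3, an early stress-response gene, was at 5.35 and 6.10 in T98G, with -0.07 and -0.08 in the others. Over the settings tried, RGCC's call was made with this prior only.

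**Figure D3:**
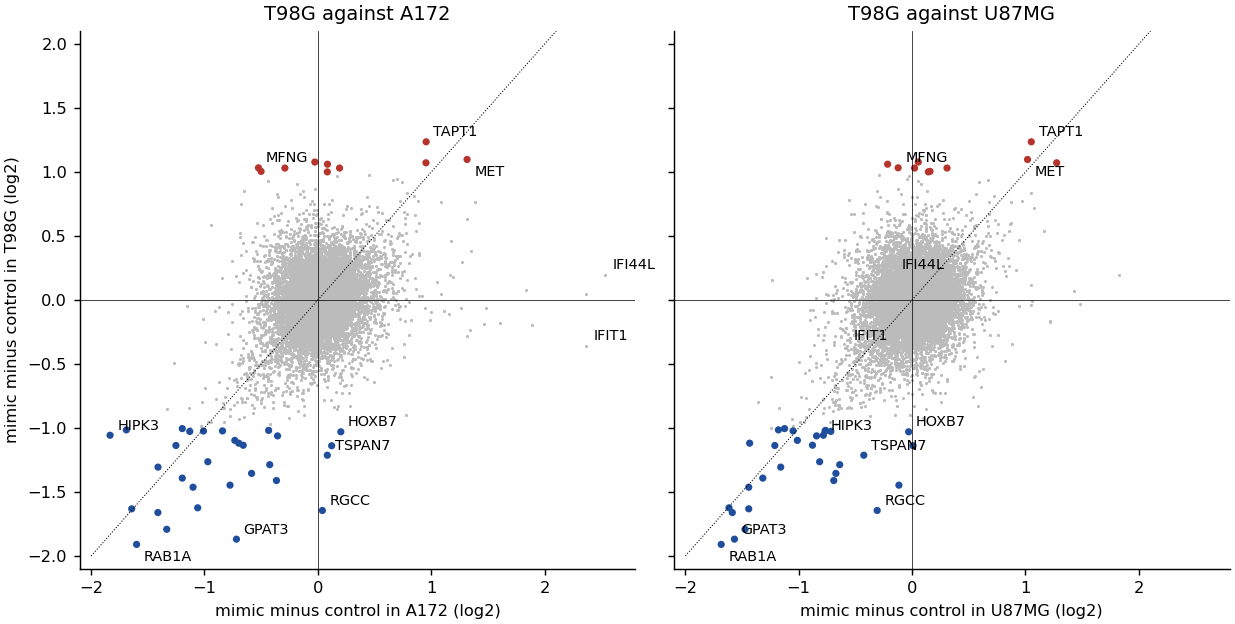
T98G difference (vertical axis, log2) against the A172 difference (left) and the U87MG difference (right) for 13813 genes; blue and red points are the 30 lower and 10 higher genes of T98G, and the dotted line marks equal differences. RAB1A and MET lie near the dotted line in both panels, and IFIT1 and IFI44L lie far right in the A172 panel only. On the horizontal axis RGCC lies at 0.04 (A172) and -0.31 (U87MG), and HOXB7 at 0.20 (A172) and -0.03 (U87MG).

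Across all 13813 genes the T98G difference correlated with that of A172 with r = 0.278 and with that of U87MG with r = 0.272, beside r = 0.292 between A172 and U87MG. These are descriptions across genes, which are not independent replicates.

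How far T98G followed the other lines was measured on genes chosen without its arrays. In the fit of A172 and U87MG alone, limma called 78 genes lower (0.565%) and 39 higher (0.282%). In T98G, 76 of the 78 were negative, 61 were at -0.5 or lower and 21 at -1 or lower, where 51.5% of all genes were negative. Their medians were -0.80 in T98G, -0.72 in A172 and -0.77 in U87MG. Of the 39 higher genes 37 were positive in T98G, 23 were at 0.5 or more and 3 at 1 or more. The T98G median of these, 0.51, was below 0.74 in A172 and 0.67 in U87MG, a gap that was not tested. The genes were chosen by their A172 and U87MG values, so larger medians there are partly built in. Of the 13 genes at -1 or lower in both A172 and U87MG, all 13 were at -0.5 or lower in T98G and 11 at -1 or lower, with a median of -1.39. MET was the 1 gene at 1 or more in both.

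Of the 4 exceptions, 3 are named here, after their values were seen. SPEM1 (0.30 in T98G) and KRTAP5-AS1 (0.17) were positive in T98G, and both had a T98G control array under the filter level. RTP4, an interferon-induced chaperone, was higher in A172 (0.99) and U87MG (0.64) and at -0.16 in T98G. Its level was higher in T98G (6.65 and 6.49) than in the control arrays of A172 (4.0) and U87MG (3.97). Those control arrays lay under the filter level, where the size of a difference is less certain. The T98G difference of RTP4 from the other lines was not called (adjusted p = 0.472, limma).

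**Figure D4:**
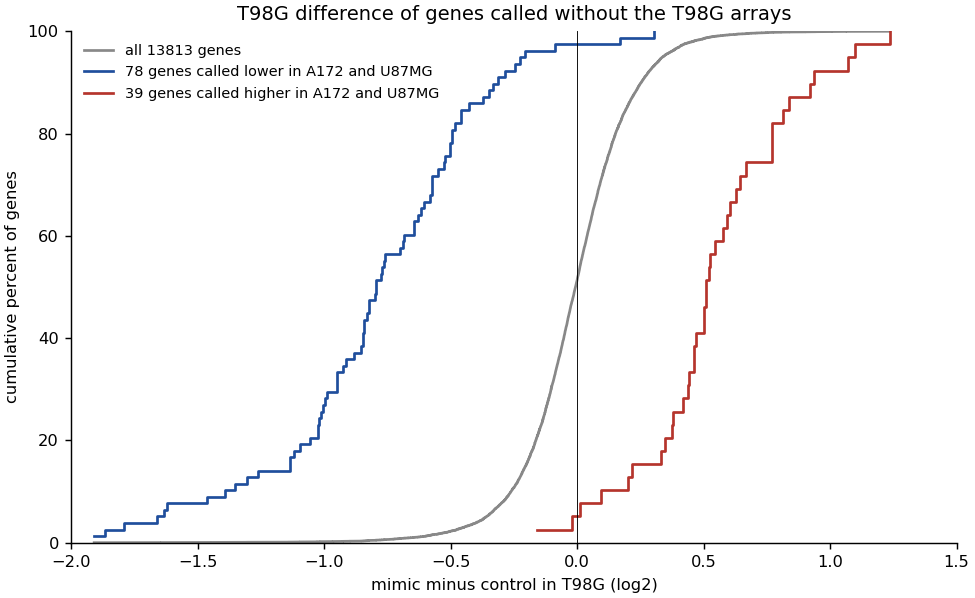
Cumulative percent of genes (vertical axis) by their T98G difference (horizontal axis, log2) for all 13813 genes, the 78 called lower and the 39 called higher in A172 and U87MG. The lower set lies left of 0 but for 2 genes and the higher set right of 0 but for 2.

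Gene lists were described by how many members passed 0.5 in T98G and by their medians, beside the median of all genes at the same T98G level. Over the whole array 2.24% of genes were lower and 1.46% higher by that fold. No member of any of the 42 lists with measured genes was called in the test of T98G against the other lines with 1 variance prior for all genes (lowest adjusted p = 0.429, limma). With the prior that follows the level, IER3 of the immediate early list was called, as given above.

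In vesicle traffic, 3 of 39 RAB GTPases were lower by 0.5 or more and none was higher. They were RAB1A, RAB28 (5.81 and 4.82), a cilium-linked member, and RAB18 (9.08 and 8.52), a member of lipid droplets and the endoplasmic reticulum. All 3, and RAB22A (-0.43 in T98G), fell in the 3-line fit, with adjusted p = 0.00506 for RAB28, 0.0240 for RAB18 and 0.0360 for RAB22A in limma. RAB18 did not pass in the fit without T98G (adjusted p = 0.0519, limma). RAB18 moved by the same amount in each line, -0.56 in T98G, -0.56 in A172 and -0.57 in U87MG. Of 36 genes of transport between endoplasmic reticulum and Golgi, the step that RAB1A serves, none passed 0.5 in T98G, and the range was -0.32 (ARF4) to 0.29 (MCFD2).

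In phosphatase and growth signalling, most members stayed near 0. Of 18 protein phosphatase 2A genes, PPP2R5A was lower and PPP2R1B, a scaffold subunit, was higher, at 7.66 and 8.6 in T98G; PPP2R1B rose over the lines (0.76 ± 0.156 SD, n = 3; adjusted p = 0.0202, limma). Of 33 mTOR and PI3K genes, RHEB and DDIT4, an mTORC1 inhibitor (7.95 and 7.36), were lower and SESN3, a sestrin that restrains mTORC1 (5.15 and 5.98), was higher. DDIT4 did not pass in the 3-line fit (adjusted p = 0.281, limma), nor did SESN3 (adjusted p = 0.432, limma). Of 16 NEDD4-family ligases and adaptors, NDFIP1 alone passed 0.5; the arrestin-like adaptors ARRDC1 (0.42), ARRDC4 (0.41) and TXNIP (0.40) were the highest. Of 27 receptor tyrosine kinase and MAPK genes, MET alone passed 0.5 upward and none downward, with EGFR at -0.43 (8.99 and 8.56) and FGFR3 at 0.49.

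In RNA and protein turnover, 3 of 32 genes of microRNA silencing and mRNA decay were lower and none higher: DCP2, PAN3 and CNOT6. PAN3, a subunit of a deadenylase, was at 8.17 and 7.38 and fell over the lines (adjusted p = 0.0151, limma). CNOT6, a catalytic subunit of the CCR4-NOT deadenylase, was at 8.09 and 7.59 and did not pass (adjusted p = 0.0720, limma), and CNOT7 of the same complex was at 0.36. The list as a whole had a T98G median of 0.01, with a sign that turned when arrays were centred. Of 34 cullin-RING ligase components 3 were lower and 2 higher. SKP1, the adaptor of SCF ligases, was at 10.24 and 9.33, CUL2, the cullin of the VHL ligase, at 8.30 and 7.72, and SPOP, a substrate receptor of CUL3, at 8.53 and 7.95. All 3 fell in the 3-line fit (adjusted p = 0.0151, 0.0239 and 0.0275, limma). SPOP did not pass in the fit without T98G (adjusted p = 0.0675, limma). WSB1, a SOCS-box receptor, was at 7.40 and 8.16 and rose (adjusted p = 0.0240, limma); KLHL9 was at 0.54 in T98G and 0.57 in A172 but -0.21 in U87MG, where it was dim.

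In the cell cycle, small positive differences ran through the mitotic genes. Of 41 G2/M genes, 33 were positive and 8 negative in T98G, though none passed 0.5. Of all genes at the same T98G level, 58.5% were negative. The median of the G2/M genes was 0.12, against -0.03 over genes of the same level, 0.03 in A172 and 0.06 in U87MG. The highest was KIF11, a mitotic kinesin, at 8.41 and 8.81, and CCNA2, cyclin A2, was at 9.20 and 9.51. No G2/M gene was called in the 3-line fit. Of 44 G1/S and replication genes, CCND3, cyclin D3, was higher (8.12 and 8.84) and RFC3, a clamp loader subunit, lower (9.41 and 8.70). RFC3 fell over the lines (-0.58 ± 0.123 SD, n = 3; adjusted p = 0.0316, limma) and CCND3 did not pass (adjusted p = 0.109, limma). RFC3 did not pass in the fit without T98G (adjusted p = 0.0762, limma). The sign of the G1/S list's median, 0.05, turned to -0.01 when arrays were centred.

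DNA damage response and repair genes, the process the study is known for, leaned the same way as the mitotic genes in T98G. Of 42 members, 28 were positive and 14 negative, where 57.9% of genes at the same level were negative. Their median was 0.08, against -0.03 at the same level, 0.04 in A172 and -0.01 in U87MG. With arrays centred, which moved the median of all genes to -0.07, this median was 0.02 and that of the G2/M list 0.06. The member that passed 0.5 was LIG4, the ligase of end joining, at 7.22 and 6.52, and its difference of -0.70 stood beside -0.18 in A172 and -0.29 in U87MG. LIG4 passed neither the 3-line fit (adjusted p = 0.235) nor the test of T98G against the others (adjusted p = 0.700) in limma. CLSPN, a checkpoint adaptor, was at 8.27 and 8.62 and BRCA1 at 7.83 and 8.16. Of 23 p53 targets, TP53INP1 alone passed 0.5, and of 26 apoptosis genes BAK1, a pore-forming protein (6.85 and 6.29), was lower and MCL1, a survival protein, was at 0.36.

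Among the pathway lists, those of energy metabolism had T98G medians furthest below 0. Of 34 hypoxia and glycolysis genes, 30 were negative, 4 were lower by 0.5 or more and 1 was higher. At the same T98G level 57.1% of genes were negative, and 24 of the 34 were negative in A172 and 24 in U87MG. The median was -0.22 in T98G, -0.08 in A172 and -0.08 in U87MG, against -0.03 for genes of the same level in T98G. ADM, the vasodilator peptide adrenomedullin, was at 10.22 and 9.39 in T98G, 7.64 and 7.37 in A172, and 8.46 and 7.81 in U87MG. VEGFA, the angiogenic factor, was at 8.63 and 7.93 in T98G, with -0.18 in each other line. NDRG1, a hypoxia-induced gene, was at 10.77 and 10.17, and PFKFB3, a regulator of glycolysis, at 8.25 and 7.74. All 4 were negative in the 3 lines, and none was called in the 3-line fit (adjusted p from 0.0507 for NDRG1 to 0.333 for PFKFB3, limma). ANGPTL4 went the other way from a low level, 4.10 and 4.70.

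Respiratory chain and mitochondrial translation genes were shifted by small amounts. Of 41 oxidative phosphorylation genes, 39 were negative in T98G, where 57.6% of genes of the same level were. The median was -0.18, against -0.03 at the same level, -0.04 in A172 and -0.06 in U87MG, and T98G was the lowest of the 3 lines for 27 of the 41 genes (65.9%, against 44.4% at the same level). NDUFB5, a complex I subunit, was the member to pass 0.5, at 9.01 and 8.47. ATP5F1C, a subunit of ATP synthase, was at 10.86 and 10.46, with -0.05 in A172 and -0.06 in U87MG. Of 48 mitochondrial ribosomal proteins, 40 were negative and T98G was the lowest line for 35 (72.9%, against 47.3% at the same level). Their median was -0.11, against 0.02 in A172 and 0.004 in U87MG, with MRPL10 the lowest at 7.37 and 6.94. Cytosolic ribosomal proteins had a median of -0.11 in T98G (30 of 35 negative, against 58.5% of genes at the same level). It was -0.06 in A172 (31 of 35) but 0.02 in U87MG (15 of 35). Mitochondrial import genes had -0.11 in T98G (20 of 27 negative, against 58.2% at the same level). Their median was -0.06 in A172 (20 of 27) but 0.01 in U87MG (13 of 27). TOMM20, a receptor of the import pore, was the exception: it was at 7.55 and 8.32 and rose over the lines (0.87 ± 0.10 SD, n = 3; adjusted p = 0.0104, limma). The signs of the T98G medians of these lists were the same under each scaling tried. The median over all genes of high T98G level was itself below 0, and the part of that trend in these lists was not tested beyond the values at the same level.

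In lipid metabolism, 18 of 19 cholesterol genes were negative in T98G with none past 0.5, against 56.9% of genes at the same level. In A172 16 of 19 were negative, and in U87MG 14 of 19. The median was -0.13 in T98G, against -0.03 at the same level, -0.16 in A172 and -0.07 in U87MG. HMGCS1, an early enzyme of the pathway, was at 9.86 and 9.58. Of 28 triglyceride and fatty acid genes GPAT3 alone passed 0.5, with its relative GPAT2 at 0.28 and ACSL5, an acyl-CoA synthetase, at -0.37.

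**Figure D5:**
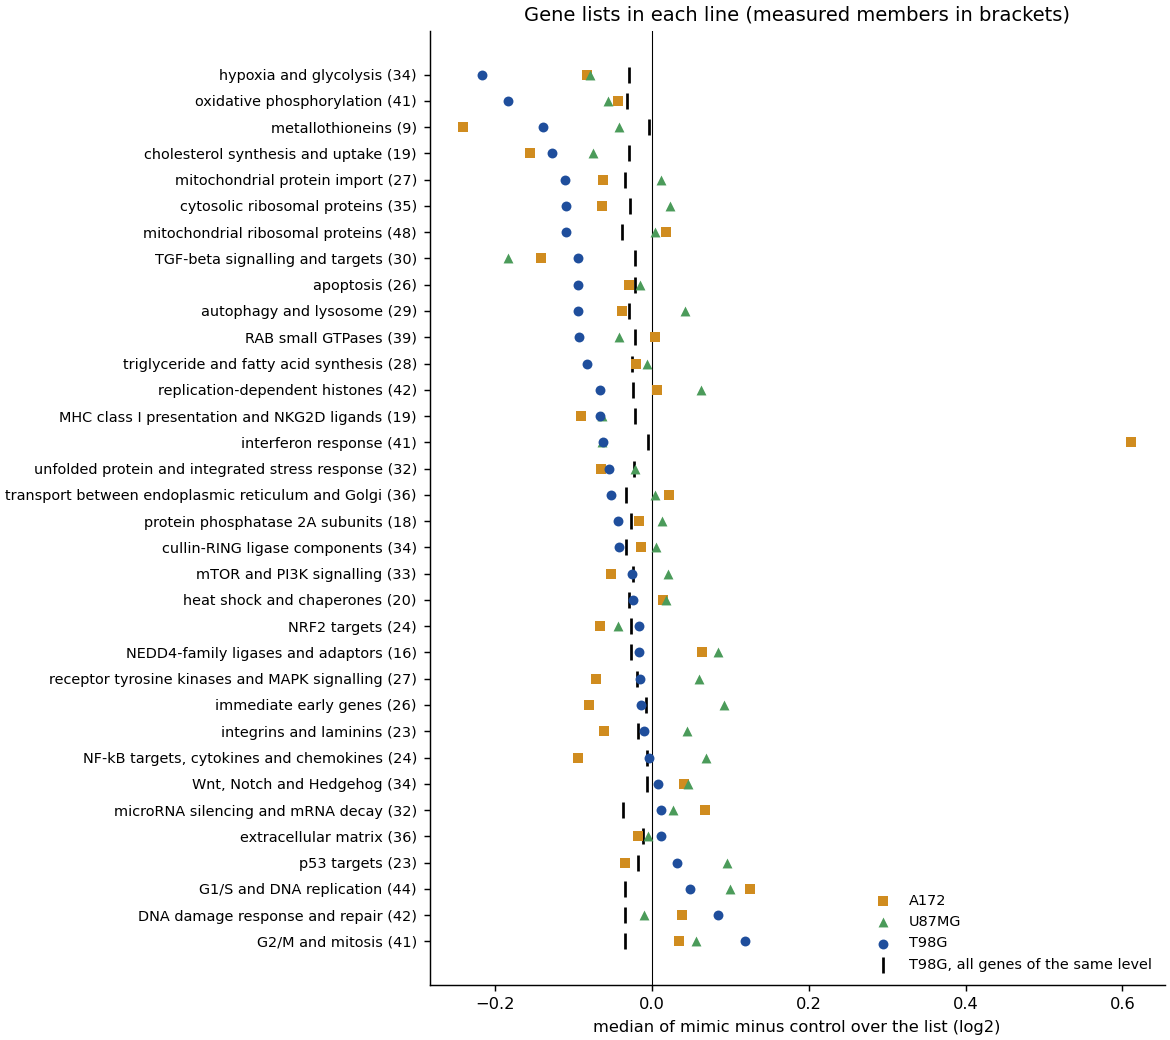
Median of mimic minus control (log2, horizontal axis) over the measured members of each gene list, for A172, U87MG and T98G, with a bar for T98G genes of the same level. Marker lists and lists of under 7 genes are not drawn. Of those drawn, hypoxia and oxidative phosphorylation have the lowest T98G medians, G2/M the highest, and the interferon list stands at 0.61 in A172 but near -0.06 in T98G and U87MG.

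The interferon response list was the one in which T98G and A172 were furthest apart. Of 41 members none passed 0.5 in T98G in either direction, and the median was -0.06, the same as in U87MG (-0.06) and far from 0.61 in A172. In A172, 28 of the 41 were higher by 0.5 or more; in U87MG none was. IFIT1, an RNA-binding antiviral protein, was at 6.65 and 6.29 in T98G, at 4.96 and 4.38 in U87MG, and went from 6.26 to 8.63 in A172. IFIH1, a sensor of double-stranded RNA, was the highest member in T98G at 6.85 and 7.30, a difference of 0.46 beside 1.17 in A172 and 0.21 in U87MG. MX1, an antiviral GTPase, was the lowest at 6.26 and 5.80, with OAS3 at -0.37 and USP18 at -0.45. T98G was not called against the mean of the others (adjusted p = 0.887 for IFIT1, limma). The error of that test joins the gap between A172 and U87MG with a variance prior taken from all genes.

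In immune recognition, MICA and MICB, stress ligands of the NKG2D receptor of natural killer cells, were lower in all 3 lines. MICB was at 8.03 and 7.18 in T98G and MICA at 6.62 and 5.82, and both fell in the 3-line fit (adjusted p = 0.0101 and 0.0359, limma). MICA did not pass in the fit without T98G (adjusted p = 0.0767, limma). MICA and MICB are near-identical paralogs, so probes may be shared between them. ULBP1, another ligand, was at 5.14 and 5.59. No other gene of the 19 in this list passed 0.5. Of 24 NF-kB targets, VCAM1, an adhesion molecule, was higher at 6.72 and 7.52; it was poorly expressed in U87MG (3.51 and 3.55).

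Among growth factor and developmental pathways, 2 of 30 TGF-beta genes were lower: ID1, a target of BMP signalling (9.47 and 8.82), and TGFBR1, the type I receptor (7.52 and 6.95). TGFBR1 fell over the lines (adjusted p = 0.0326, limma) and ID1 did not pass (adjusted p = 0.140, limma). Of 34 Wnt, Notch and Hedgehog genes, PTCH1, the Hedgehog receptor (6.86 and 6.27), and HEY2, a Notch target (6.07 and 5.56), were lower. PTCH1 fell and RBPJ, the DNA-binding factor of Notch, rose in the 3-line fit (adjusted p = 0.0436 and 0.0468, limma), with RBPJ at 8.20 and 8.67 in T98G. In the fit without T98G, PTCH1 did not pass (adjusted p = 0.111, limma) and RBPJ did (adjusted p = 0.0384, limma). Of 36 matrix genes, LOXL2, a collagen crosslinking oxidase, was lower (10.28 and 9.58) and MMP3, a matrix protease, higher (9.31 and 9.99). ITGB8, an integrin that activates TGF-beta, was higher (6.88 and 7.57) and was the member of 23 integrins and laminins to pass 0.5. None of LOXL2, MMP3 and ITGB8 was called in the 3-line fit (adjusted p = 0.0537, 0.664 and 0.228, limma).

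Stress programmes showed single genes rather than lists. Of 32 genes of the unfolded protein and integrated stress response, DDIT4 and CRELD2 (8.24 and 7.66) were lower, and DDIT3, the stress factor CHOP, was at -0.40. HSPB8, a small heat shock protein (7.44 and 6.87), and HMOX1, haem oxygenase (8.38 and 7.83), were the members to pass 0.5 among 20 heat shock and 24 NRF2 genes. None of these 5 was called in the 3-line fit, with adjusted p from 0.281 (DDIT4) to 0.695 (CRELD2) in limma. Of 26 immediate early genes, KLF10 was lower (7.88 and 7.32), while IER3 and NR4A2 were higher, NR4A2 with both T98G arrays under the filter level. The 29 autophagy, 42 histone and 9 metallothionein genes held no member past 0.5 in T98G.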

How the data were processed

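Expression was measured on 6 arrays, 1 for each line and transfection. The authors deposited log2 values for 33297 probe sets, made with RMA in the package oligo under R 3.0.1, per the submitters' processing notes. Genome build, filters and batches: not given in the sources used here. RMA sets arrays to a common distribution, so a shift of most genes 1 way would be largely removed. The values were used without further normalization. The platform annotation gave 1 symbol for 19460 probe sets, several for 1754 and none for 12083, and 19429 matched the RefSeq table of GRCh38.p14, used for names. Of 18417 genes, 769 had several probe sets and the brightest was used. The lowest 25% by mean (under 4.28) were left out, which left 13813.

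The number of arrays limits the precision, and the T98G difference has no replicate check. The 3-line response (line as a block) and T98G minus the mean of the others were fitted by limma's moderated test (version 3.58.1, R 4.3.3, two-sided, threshold 0.05 after Benjamini-Hochberg adjustment over all genes), with scripts tested on simulated data. P-values rest on the spread between lines, pooled with a variance prior taken from all genes. The prior gave 4.563 of 6.563 degrees of freedom in the 3-line fit. In the test of T98G against the others it gave 6.675 of 7.675. A gene's own spread is therefore the smaller part of its error. Genes were named by rule: the 15 lowest and 12 highest in T98G, the most shared, those absent elsewhere, the smallest p of the difference test, up to 4 members a list, the study's targets and AATK, each with a T98G array at the filter level. Others were named after their values were seen, where a count was small or a gene stood out. The members, 43 gene lists and tests were chosen with earlier results of these data known. Of 1193 list entries, 93 were not named on the array and 37 lay under the filter. Sites in target transcripts were not analysed here, and 1 gene is not reported here. Alternatives covered the filter, scale, probe sets, level trend, variance prior and lines.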

Additional observations from a re-analysis of the deposited data

Results flagged for a closer look

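EML6 and MFNG had T98G differences whose sign was opposite to that in both other lines, where EML6 was near 0. EML6 differed by -1.14 in T98G, against 0.12 in A172 and 0.01 in U87MG. MFNG differed by 1.03 in T98G, against -0.52 in A172 and -0.12 in U87MG. In limma's test of T98G against the mean of the others neither was called (adjusted p = 0.429 for both). The lower T98G array of each lay under the filter level. So did both A172 arrays of EML6 (4.05 and 4.17) and the A172 mimic array of MFNG (4.04), so the signs in A172 are uncertain. The interferon list had a median of -0.0622 in T98G and 0.61 in A172; the difference between these medians was not tested.

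Probe sets without a single gene symbol, which carry several symbols or none, stand outside the comparisons above. What those with none measure was not examined, so their split cannot be read as a response of genes. Of 6339 probe sets without a single symbol above the filter level, 40 were lower and 62 higher by 1 or more in T98G. This split was opposite to that of the named genes (30 and 10). Among them 2 were lower by 1 or more in T98G and by 0.5 or more in both other lines, and 4 were higher in the same sense. The lowest of these, annotated to several genes and so left unnamed, differed by -1.58 in T98G, -1.63 in A172 and -1.65 in U87MG.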

How the results depend on the processing

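Of 183 named genes, 72 differed by 0.5 or more in T98G, and 0 of these changed sign under 6 alternatives. The changed filters leave each T98G difference as it is, and centring shifts all of them by the same small amount. None of these could reverse a difference of 0.5, so they are no check of its sign. Over all named genes, 26 of 1052 values moved by more than the SD over the 3 lines, with 0 able to move under the changed filters. That SD is large where T98G stands apart (0.89 for RGCC), so such genes could hardly count as moved. With the lowest 50% left out, 44 of the 183 genes had no value. Genes lower by 1 or more numbered 24 to 36, those shared by the 3 lines 19 to 26 and shared higher genes 3, the last counts under 5 alternatives. Higher genes varied more. At a fold of 0.5 they numbered 360 with no filter, 73 with the lowest 50% left out and 124 with arrays centred (202 as reported). At a fold of 1 they numbered 4 with the lowest 50% left out, 4 with arrays centred and 4 with the level trend removed (10 as reported). With the lowest 50% left out, 0 lower and 0 higher genes were absent from the other lines, and with arrays centred 1 higher gene was (1 and 6 as reported). Centring moved the median of all T98G differences to -0.07. The 3-line fit called 153 genes as reported, 60 with no filter, 360 with the lowest 50% left out, 236 with arrays centred and 471 with a variance prior that follows the level. Without the line in the model it called 0 (127 at an unadjusted p under 0.05), and leaving out a line gave 0 to 117: 64 without A172, 117 without T98G and 0 without U87MG (1339 at an unadjusted p under 0.05). The test of T98G against the others called 3 with the level-following prior and 0 as reported. Against each line alone, with no test, the T98G response of RGCC differed by -1.69 (A172) and -1.34 (U87MG). The cause of these shifts was not tested, except that fewer lines leave fewer samples and other filters change the number of genes tested. The 3-line fit pairs the control and mimic arrays of a line through the block.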
